A study of Homo sapiens with 2 samples.

Results

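The sites described here are C-to-U edit positions listed under a gene with PacBio isoform models. They fell in none of that gene's modelled exons on the strand of the site. They lay in an annotated intron, and in no annotated exon, of that strand. Annotation was GENCODE 44 on hg38. Positions listed in both libraries were left out. There were 737 such positions among 213041 distinct positions listed in either library, 363 in the RBFOX2-INSCRIBE library and 374 in the enzyme-only control. With strand ignored, 287 of the 737 (38.9%) fell in a modelled exon of the listed gene. They made up 0.332% (95% Clopper-Pearson interval 0.299 to 0.368) of the 109357 unshared nuclear positions of the RBFOX2 library and 0.411% (0.370 to 0.454) of the 91107 of the control.

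Both libraries came from methanol-fixed HEK293T cells, a human embryonic kidney line that the labels also write as HEK293XT, and both received a recombinant fusion of the cytosine deaminase APOBEC1 to a nanobody that recognises rabbit IgG. The RBFOX2-INSCRIBE cells were incubated first with a rabbit antibody against RBFOX2, and the enzyme-only cells were not. Each group was 1 library, so no difference between them has a replicate check and no p-value is given. Intervals cover counting error only, and reads in the tables carry no molecular identifiers.

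Most long-read cDNA comes from spliced, polyadenylated RNA, so introns are normally absent from it, apart from introns that are retained, detained in the nucleus or caught before splicing. RBFOX2 is a splicing factor that binds UGCAUG, often in introns beside the exons it regulates. APOBEC1 deaminates cytosine in single-stranded RNA and prefers an A or U directly 5′ of it.

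The listed gene and the intron were often not of the same gene. Relative to the isoform models of the gene under which a position was listed, 120 RBFOX2 sites (33.1%, 28.2 to 38.2) and 132 enzyme-only sites (35.3%, 30.5 to 40.4) were on the strand of the models and inside their span. Another 148 (40.8%, 35.7 to 46.0) and 155 (41.4%, 36.4 to 46.6) were inside the span on the opposite strand. The remaining 95 (26.2%, 21.7 to 31.0) and 87 (23.3%, 19.1 to 27.9) lay outside the span, including 4 RBFOX2 sites on a chromosome other than that of the models. The shares overlapped between the libraries in all 3 places. Own-strand sites differed from the others in distance to splice sites, and the places differed in genes, so they are described separately. In sequence context the places differed less. In the control, their intervals for A or U directly 5′ overlapped.

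**Figure D1:**
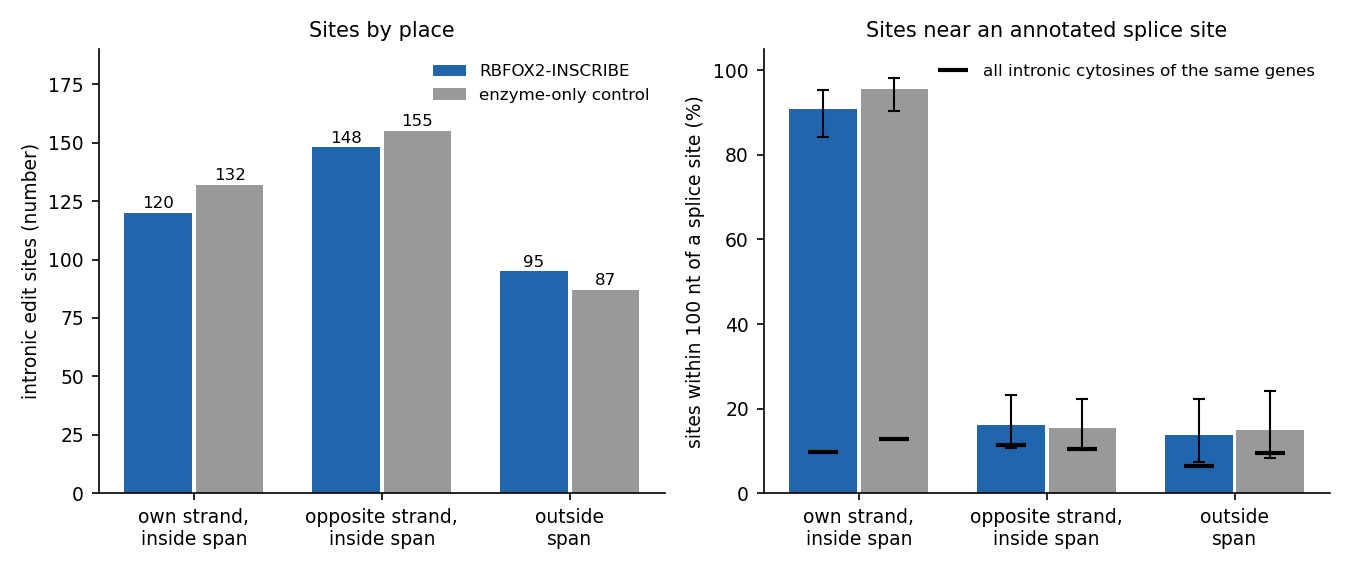
Left, number of intronic edit sites by place relative to the isoform models of the listed gene. Right, percent of those sites within 100 nt of an annotated splice site with 95% intervals, beside the share of all intronic cytosines of the same genes (black marks). Own-strand sites stood at 90.8% and 95.5%, against 9.66% and 12.9% of the cytosines.

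On the strand and inside the span of the models, intronic sites sat at the ends of introns. Of 120 RBFOX2 sites, 109 (90.8%, 84.2 to 95.3) were within 100 nt of an annotated splice site, where 9.66% of the intronic cytosines of the same genes lie. Of 132 enzyme-only sites, 126 (95.5%, 90.4 to 98.3) were, against 12.9%. The median distance to the nearer intron end was 13 nt in the RBFOX2 library (quartiles 6 and 24.2) and 11 nt in the control (6 and 20.2). The 2 libraries did not differ beyond their intervals in this share.

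Both ends of the intron were involved. The nearer end was the 3′ end for 70 RBFOX2 and 77 enzyme-only sites, 58.3% in each library, and the 5′ end for 50 and 55. At 3 to 10 nt from the 3′ end stood 36 RBFOX2 sites against 0.816 expected from the placement of cytosines, and 38 enzyme-only sites against 1.26. Expected counts treat all intronic cytosines alike and are not matched for read coverage, which is unknown inside introns. An excess over them is therefore not a measure of how readily intron ends are edited. At 3 to 10 nt from the 5′ end the counts were 17 against 0.362 and 19 against 0.576. At 51 to 100 nt from the 5′ end there were 0 RBFOX2 and 3 enzyme-only sites against 2.86 and 3.75 expected. More than 500 nt inside an intron there were 4 RBFOX2 sites nearer each end, against 40.8 expected nearer the 5′ and 40.7 nearer the 3′ end. The 17 own-strand sites beyond 100 nt were spread over 14 genes and each rested on 1 converted read. They included sites in SIN3B, a scaffold of a histone deacetylase complex, CDC73, a subunit of the PAF1 elongation complex, and GRB10, an adaptor of the insulin receptor, where the site was 8223 nt from the nearer splice site.

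**Figure D2:**
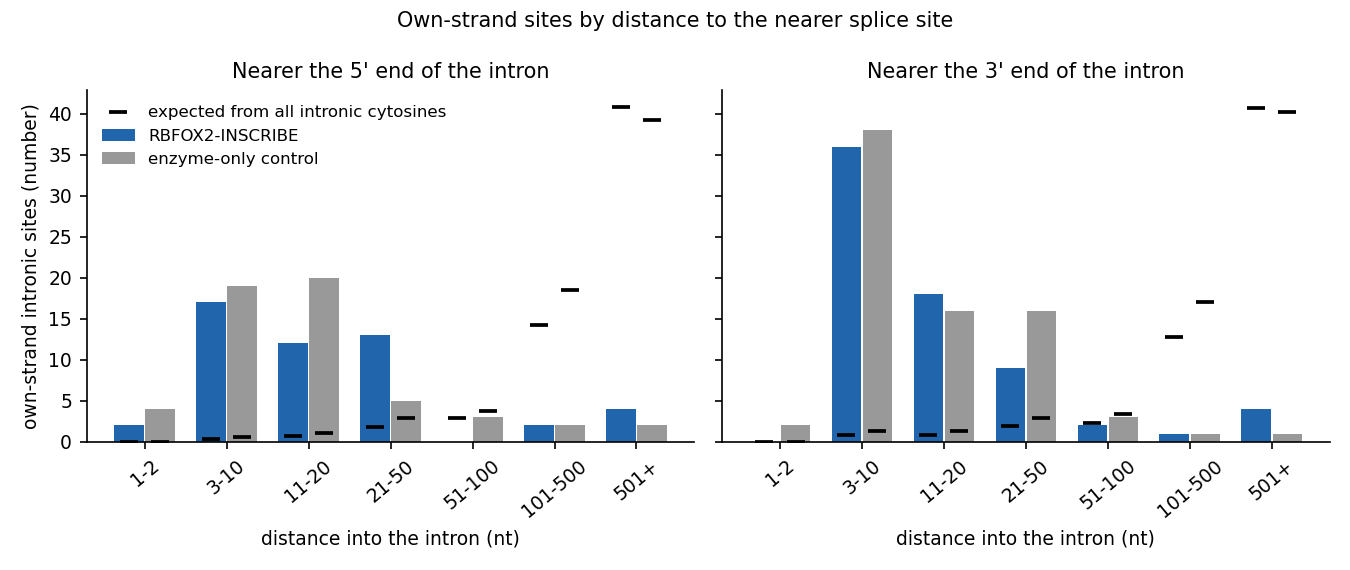
Number of own-strand intronic sites (bars) by distance into the intron from the nearer end, 5′ end on the left and 3′ end on the right, with the number expected if sites fell on all intronic cytosines of the same genes alike (black marks). In both libraries the tallest bar is 3 to 10 nt from the 3′ end, with 36 and 38 sites. Expected numbers are not matched for read coverage.

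The intronic letters at these positions were compared with those of the exon that the isoform model joins in their place. For a site a few bases inside an intron, this is the base at the same offset on the other side of the junction. Among own-strand sites within 20 nt of the end of a modelled intron, that base was T for 40 of 86 RBFOX2 sites (46.5%, 35.7 to 57.6) and for 36 of 99 enzyme-only sites (36.4%, 26.9 to 46.6). Over all intronic cytosines at the same ends and distances of the same genes, the share was 25% and 25.3%. At 3 to 5 nt from the 3′ end it was T for 16 of 22 RBFOX2 sites (72.7%, 49.8 to 89.3) against 22.7%, and for 10 of 20 enzyme-only sites (27.2 to 72.8%) against 20.6%. At 6 to 10 nt from the 3′ end it was 6 of 14 (42.9%) against 25% and 4 of 18 (22.2%) against 24.2%. At 11 to 20 nt from the 3′ end it was 6 of 18 (33.3%, 13.3 to 59.0) and 6 of 16 (37.5%, 15.2 to 64.6), against 22.8% in both. Within 20 nt of the 5′ end it was 12 of 32 (37.5%) against 27.8% and 15 of 43 (34.9%) against 28.9%. All these intervals held the expected share. The excess was therefore detectable only at 3 to 5 nt from the 3′ end, and counts elsewhere were small. Whether reads with short exon ends aligned into introns account for own-strand sites near intron ends was not tested.

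**Figure D3:**
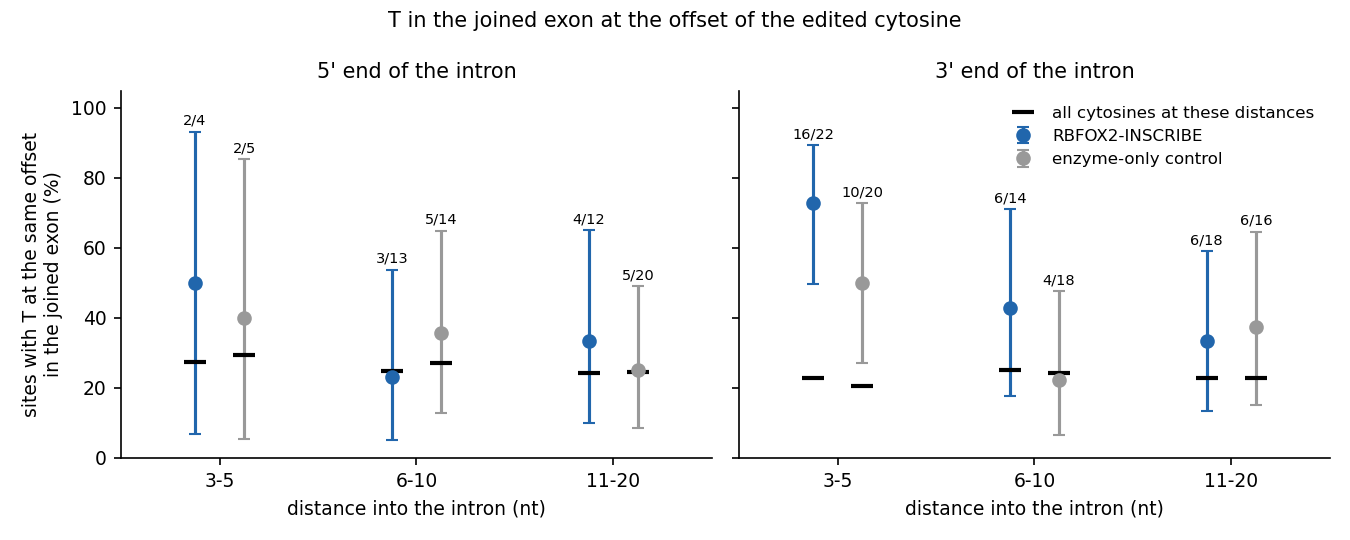
Percent of own-strand sites whose joined exon has T at the offset of the edited cytosine, by distance from the 5′ (left) or 3′ end (right) of the modelled intron, with 95% intervals and counts. Black marks give the share over all cytosines at those distances. At 3 to 5 nt from the 3′ end 16 of 22 RBFOX2 and 10 of 20 enzyme-only sites had T.

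The letters can be set beside each other for sites where the joined exon matched the intron at every base between the site and the junction and had T at the site. There were 9 such sites in each library, and 0 RBFOX2 and 4 enzyme-only sites matched up to the junction with another base at the site. Few bases were compared. Of these 22 matching sites, 8 lay within 2 nt of the junction, where at most 1 other base was compared. How often other cytosines match in this way was not counted, so nothing is concluded from these numbers. The examples below were chosen after their values were seen, and each rested on 1 converted read. In each pair the first line is the genome around the site, 5′ to 3′ on the strand of the gene with the edited cytosine in capitals, and the second is the spliced model aligned at the same exon, with the base at the same offset in capitals.
IPO5, chr13:98009863-98009892, + strand, enzyme-only: tttaaaatttttccCcagatctcttacatg
IPO5, spliced model: gaagatgatgatccTcagatctcttacatg
LAMC1, chr1:183118016-183118045, + strand, RBFOX2: ccctttctttctctCcaggctccatgaagc
LAMC1, spliced model: tgtgaagtatgtctTcaggctccatgaagc
SLC38A10, chr17:81253229-81253258, - strand, RBFOX2: actgtgccctgctcCcagcccaggatccgg
SLC38A10, spliced model: aggcagcgcggctcTcagcccaggatccgg
IPO5 is an importin, LAMC1 the laminin gamma chain and SLC38A10 an amino acid transporter. In all 3 genes the edited cytosine was 4 nt from the 3′ end of the intron, in the pyrimidine-rich stretch before the CAG at the splice site, and the upstream exon of the model ended in TCAG.

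The second base of the intron was also among the listed positions. It is U in nearly all introns and C in the rare class that begins with GC. Own-strand sites at that base numbered 2 in the RBFOX2 library, in EZR and MRPL2, and 4 in the control, in ALG6, METTL17, PGD and TMEM39A, where 0.00681 and 0.0167 sites within 2 nt of the 5′ end were expected from the placement of cytosines. Each was 1 converted read. The windows show the GC dinucleotide, with the edited cytosine in capitals, followed by aag or atg.
EZR, chr6:158787091-158787120, - strand, RBFOX2: gctggataagaaggCaagtcaggattaact
MRPL2, chr6:43056290-43056319, - strand, RBFOX2: atgatccctgtaggCaagtttgggatgtgg
METTL17, chr14:20994601-20994630, + strand, enzyme-only: tgtatcacccaaggCaagtggcagtgttta
PGD, chr1:10408128-10408157, + strand, enzyme-only: ctgctgtgactgggCaagttctgggctact
In these 4 genes the second base of the next exon of the model was T, as it was in TMEM39A, and in ALG6 it was A. T is frequent there in any case. Within 2 nt of the 5′ end of modelled introns, both libraries together had T for 6 of 7 sites (85.7%, 42.1 to 99.6). That interval holds the share over all cytosines at those places, so no excess of T was detectable.

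Several converted reads at 1 intronic position were rare. At least 2 converted reads were listed for 19 of 363 RBFOX2 sites (5.23%, 3.18 to 8.05) and 18 of 374 enzyme-only sites (4.81%, 2.88 to 7.50). In exons of the models the shares were 14.7% of 105671 and 9.72% of 87445 unshared sites. The median number of reads of the listed gene was 197 and 158 at intronic sites and 222 and 208 at exonic sites. These reads are counted over the whole gene, so the number that covered the intron itself is unknown.

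The own-strand positions with the most converted reads were again at intron ends. This ranking depends in part on read depth. All listed fractions exceed 0.002, so a gene with more than 500 reads could not list a position with 1 converted read. UBE2C, the ubiquitin-conjugating enzyme of the anaphase-promoting complex, had 4 converted of 698 reads (0.573%) in the RBFOX2 library, 4 nt from the 3′ end of a 919-nt intron. DAPK3, a death-associated protein kinase, had 3 of 445 reads (0.674%) at each of 2 positions, 21 and 17 nt from the 5′ end of a 201-nt intron, in the RBFOX2 library. A further DAPK3 position, chr19:3963861, was left out because both libraries listed it, with 4 of 445 and 1 of 352 reads. PCBP2, a poly(C)-binding protein, had 4 of 1246 reads (0.321%) in the control, 6 nt from the 5′ end of a 477-nt intron. The PCBP2 position was the only one with at least 2 converted reads and UGCAUG within 20 nt, and the motif, in the exon, ended 11 nt before it. PHYHD1, a dioxygenase, and MACROD1, a macrodomain protein, had 2 converted reads each, of 81 and of 217, in the RBFOX2 library at 5 and 3 nt from the 3′ end. The windows of these sites follow, with the edited cytosine and UGCAUG, written as DNA, in capitals.
UBE2C, chr20:45814366-45814395, + strand, RBFOX2: aatgtgttttctccCcagatgtctggcgat
DAPK3, chr19:3963835-3963864, - strand, RBFOX2: gtaccacctgctccCaccgggcctccctgc
PHYHD1, chr9:128940350-128940379, + strand, RBFOX2: cccccgtgggcctgCttagtctcccctcat
MACROD1, chr11:63999392-63999421, - strand, RBFOX2: cgccccacccgcctCaggctacccctgtga
PCBP2, chr12:53454858-53454887, + strand, enzyme-only: aTGCATGgaaaggtatgCtctagcttggga

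Own-strand sites came in runs within 1 library. Of the RBFOX2 sites, 50 of 120 (41.7%, 32.7 to 51) had another site of the same library and gene within 50 nt, and 1 of 120 (0.833%, 0.0211 to 4.56) had one of the control. In the control, 49 of 132 (37.1%, 28.9 to 46.0) had a neighbour of their own library and 1 of 132 (0.758%, 0.0192 to 4.15) one of the RBFOX2 library. Leaving out positions listed in both libraries lowers the count across libraries. With the shared positions that met the rule counted as neighbours, an alternative chosen after seeing the data, 6 of 120 (1.86 to 10.6%) and 2 of 132 (1.52%, 0.184 to 5.37) had a site of the other library nearby, the added ones beside positions such as those in DAPK3 and MAX. For exonic sites, where sites are dense, the shares were 61.5% within and 44.4% across libraries for RBFOX2, and 55.1% and 48.3% for the control. Single genes, picked after their values were seen, show the runs. SSBP4, a single-stranded DNA binding protein gene, had 6 enzyme-only sites from 4 to 20 nt before the 3′ end of a 96-nt intron, each 1 read, and 0 RBFOX2 sites. GCA, which encodes grancalcin, had 5 enzyme-only sites from 8 to 18 nt into an intron of 4030 nt and 0 RBFOX2 sites. AIF1L, which encodes an actin-bundling protein, had 5 enzyme-only and 0 RBFOX2 sites in a 119-nt intron. MACROD1 had 5 RBFOX2 and 0 enzyme-only sites over 3 introns. In DAP3, a mitochondrial ribosomal protein gene, 4 sites were in the RBFOX2 library and 1 in the control. Edits of neighbouring positions in the same read cannot be told from edits in separate reads in these tables.

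The base before the edited cytosine differed between own-strand intronic sites and exonic sites. In exons of the models, A or U stood directly 5′ of 71.7% (71.5 to 72.0) of sites in the RBFOX2 library and 63.8% (63.5 to 64.2) in the control. Among own-strand intronic sites the shares were 50.8% (41.6 to 60.1) and 43.9% (35.3 to 52.8), both below the exonic shares and with intervals that hold the 46.8% and 46.0% of the intronic cytosines of the same genes. Within 100 nt of splice sites those cytosines stood at 46.9% and 45.9%. A cytosine preceded 39 of 120 RBFOX2 sites (32.5%, 24.2 to 41.7) and 41 of 132 enzyme-only sites (31.1%, 23.3 to 39.7), against 15.5% and 20.9% of exonic sites. How often a cytosine precedes the other intronic cytosines at such places was not counted, so this contrast is not read as a preference. Opposite-strand sites had 53.4% (45.0 to 61.6) and 48.4% (40.3 to 56.5) A or U, against 47.8% and 46.4%. Sites outside the span had 70.5% (60.3 to 79.4) and 60.9% (49.9 to 71.2), above the 51.7% and 49.3% of their cytosines and near the exonic shares.

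**Figure D4:**
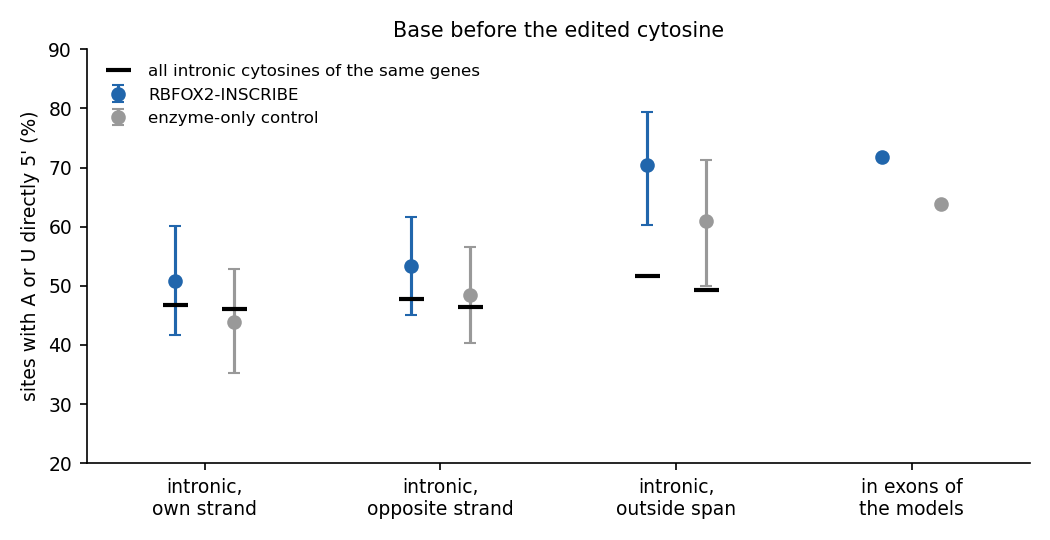
Percent of sites with A or U directly 5′ of the edited cytosine, with 95% intervals, for the 3 places of intronic sites and for exonic sites. Black marks give the share over all intronic cytosines of the same genes. Own-strand and opposite-strand sites lie near the marks, and sites outside the span lie at 70.5% and 60.9%. The axis starts at 20%.

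Opposite-strand sites lay in exons of the listed gene, read from the other side. Of 148 RBFOX2 sites, 144 (97.3%, 93.2 to 99.3) fell in an exon of the listed gene's models when strand was ignored, and so did 143 of 155 (92.3%, 86.9 to 95.9) enzyme-only sites. An annotated exon of the opposite strand covered 134 (90.5%) and 141 (91.0%). On the strand of the listed gene the reference base at these positions is G, since the tables list a C on the site's strand. Whether that strand comes from the read, the cDNA or the annotation is not given in the sources used here, so an edit of another transcript cannot be told apart from a change at a G of the listed gene. For every one of them the intron belonged to another gene, on the other strand, and isoform models of another gene on the site's own strand had an exon there for 11 (7.43%) and 19 (12.3%). Within 100 nt of a splice site were 24 sites in each library (16.2%, 10.7 to 23.2, and 15.5%, 10.2 to 22.2). Of the cytosines, 11.3% and 10.4% were, and the median distance of the sites was 764 nt in both libraries. At 11 to 20 nt from an intron end, RBFOX2 sites exceeded the placement of cytosines. They numbered 4 against 1.01 expected at the 5′ end (ratio 3.95, 1.08 to 9.91) and 6 against 1.38 at the 3′ end (4.34, 1.61 to 9.22). In the control the counts were 1 against 1 and 2 against 1.18, with ratio intervals that hold 1. These expected counts are not matched for read coverage either.

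Many of the genes with the most intronic sites were of this kind. The 5 introns with the most sites over both libraries were all on the strand opposite to the listed gene. MRPS11, a protein of the small mitochondrial ribosomal subunit, had 9 RBFOX2 and 11 enzyme-only sites in a 45658-nt intron of ENSG00000173867 (chr15:88465774-88511431, - strand). PUS3, a tRNA pseudouridine synthase, had 3 and 14 in a 7631-nt intron of HYLS1, a gene of centriole and cilium assembly (chr11:125891473-125899103, + strand). The reverse pair also occurred, with 6 RBFOX2 and 0 enzyme-only sites listed under HYLS1 in PUS3. ARPC1B, a subunit of the actin-nucleating Arp2/3 complex, had 11 and 6 sites in PDAP1, 10 and 6 of them in 1 intron (chr7:99392800-99397861, - strand). CHERP, which takes part in calcium homeostasis and splicing, had 6 and 7 sites, 6 and 5 of them in an intron of C19orf44 (chr19:16517342-16520093, + strand). DCPS, the scavenger decapping enzyme, had 4 and 6 in GSEC (chr11:126342323-126355396, - strand). RNASEH2C, a subunit of ribonuclease H2, had 5 and 6 sites in KAT5, an acetyltransferase gene. FADS1, a fatty acid desaturase, had 6 RBFOX2 and 0 enzyme-only sites in its neighbour FADS2, and CCNA2, which encodes cyclin A2, had 5 and 1 in EXOSC9, a subunit of the RNA exosome.

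Opposite-strand sites of the 2 libraries were neighbours more often than own-strand sites. Within 50 nt of a site of the other library were 41 of 148 RBFOX2 sites (27.7%, 20.7 to 35.7) and 37 of 155 enzyme-only sites (23.9%, 17.4 to 31.4), against 1 of 120 and 1 of 132 on the own strand. With shared positions counted, the values were 42 (28.4%, 21.3 to 36.4) and 38 (24.5%, 18.0 to 32.1) against 6 and 2. Opposite-strand sites were more crowded, 303 in 94 genes over both libraries against 252 in 170 genes on the own strand. The share of neighbours expected from that crowding was not computed, so the contrast is not read as reproducibility. Introns with at least 5 sites of 1 library held 57 of 148 RBFOX2 (38.5%, 30.6 to 46.9) and 47 of 155 enzyme-only opposite-strand sites (30.3%, 23.2 to 38.2). On the own strand they held 0 of 120 (0 to 3.03%) and 16 of 132 (12.1%, 7.09 to 18.9). In all, 45 of 363 introns and 47 of 317 genes had sites of both libraries. Most introns held 1 site of their library, 126 of 199 for RBFOX2 and 139 of 209 for the control. The overlap over all genes with unshared sites was not counted, and positions listed in both libraries were left out. These counts are therefore read neither as low nor as high, and no difference between the libraries is read from them.

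Among sites with more than 1 converted read, the highest edit fraction was at an opposite-strand position. Under ENSG00000269937, 4 of 5 reads (80.0%) were converted in the RBFOX2 library at chr16:2562443, in a 3644-nt intron of PDPK1, a kinase of the insulin pathway, and the window occurs 2 times in the genome. PSMD7, a proteasome lid subunit, had 3 converted of 799 reads (0.375%) in the control at chr16:74305658, in an intron of ENSG00000259972. HYLS1 had 2 of 60 reads (3.33%) in the RBFOX2 library at chr11:125899715, in PUS3.
PDPK1 intron, chr16:2562429-2562458, + strand, RBFOX2: ccacctgtcctcccCgtctctccccagcac
HYLS1 site in PUS3, chr11:125899700-125899729, - strand, RBFOX2: cagattctgattcaCtgataatcgactcat

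Sites outside the span of the models were often in sequence that occurs more than once in the genome. Of 95 RBFOX2 sites, 62 (65.3%, 54.8 to 74.7) had a 30-base window with a further exact copy, and of 87 enzyme-only sites, 45 (51.7%, 40.8 to 62.6). Own-strand sites had such windows in 3 of 120 (2.5%) and 6 of 132 (4.55%), and exonic sites in 7.38% and 6.60%. A further copy lay in an exon of the listed gene's own models for 9 and 5 of the outside sites. At least 1000 copies were found for 5 RBFOX2 and 7 enzyme-only outside windows. On the strand of the listed gene's models were 33 of 95 RBFOX2 and 26 of 87 enzyme-only outside sites. For outside sites on the chromosome of the models, the median distance to the models was 878316 nt in the RBFOX2 library and 49339 nt in the control. Within 100 nt of a splice site were 13 RBFOX2 outside sites (13.7%, 7.49 to 22.3), against 6.31% of the intronic cytosines of the same genes. In the control 13 were (14.9%, 8.20 to 24.2), against 9.59%, which that interval holds.

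Several of the genes paired by these sites share a family name. ZNG1C, of the ZNG1 family of zinc chaperones, had 14 RBFOX2 and 3 enzyme-only sites, 7 and 2 in ZNG1E and 7 and 1 in ZNG1A. TIMM23B, named after the mitochondrial import translocase gene TIMM23, had 7 and 1, all in TIMM23. WASH9P, a pseudogene of a WASH complex subunit, had 4 and 5 in another such pseudogene, WASH7P. FAM72C had 4 and 1 in FAM72D, and CCZ1B had 4 and 0 in CCZ1. Identity between the paired genes was not measured, and counts where windows recur are uncertain. Other outside pairs did not share a family name, but could still be neighbours. ENSG00000259972 and PSMD7 also occurred the other way round as an opposite-strand pair. ANO7, an anoctamin, had 1 and 7 sites in HDLBP, which encodes the RNA-binding protein vigilin, and 1 of the 8 windows had a further copy. TTC28-AS1 had 3 and 5 in PITPNB, with a further copy for 0 of 8. ENSG00000259972 had 0 RBFOX2 and 6 enzyme-only sites in PSMD7, and 5 of the 6 windows had a further copy. ZCCHC14 had 6 enzyme-only sites in MAP1LC3B, the autophagy gene for LC3B, all within 185 nt and all with 2 of 77 reads (2.60%), and 5 of those windows had further copies.

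Counts per gene were compared between the libraries for the 8 genes with at least 10 intronic sites, as log2 ratios of the shares of sites with 0.5 added to each count. Past 2-fold were 1 of 8 genes (12.5%) toward RBFOX2 and 1 of 8 (12.5%) toward the control. Over all unshared sites, 19.4% of 5522 genes with at least 10 sites were past 2-fold toward RBFOX2 and 16.9% toward the control, so the share of intronic counts past 2-fold was not above that background. ZNG1C stood at a log2 ratio of 2.09 (interval without the added 0.5, 0.42 to 4.71), with 370 and 366 reads in the RBFOX2 library and the control and with 15 of its 17 windows in more than 1 copy. PUS3 stood at -2.01 (-4.62 to -0.34), with 78 and 96 reads. ARPC1B stood at 0.87 (-0.64 to 2.64), DCPS at -0.49 (-2.81 to 1.53) and MRPS11 at -0.23 (-1.70 to 1.16). RNASEH2C at -0.20 (-2.27 to 1.76), CHERP at -0.16 (-2.03 to 1.62) and ENSG00000285589 at 0.04 (-2.08 to 2.16) had near-equal counts.

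**Figure D5:**
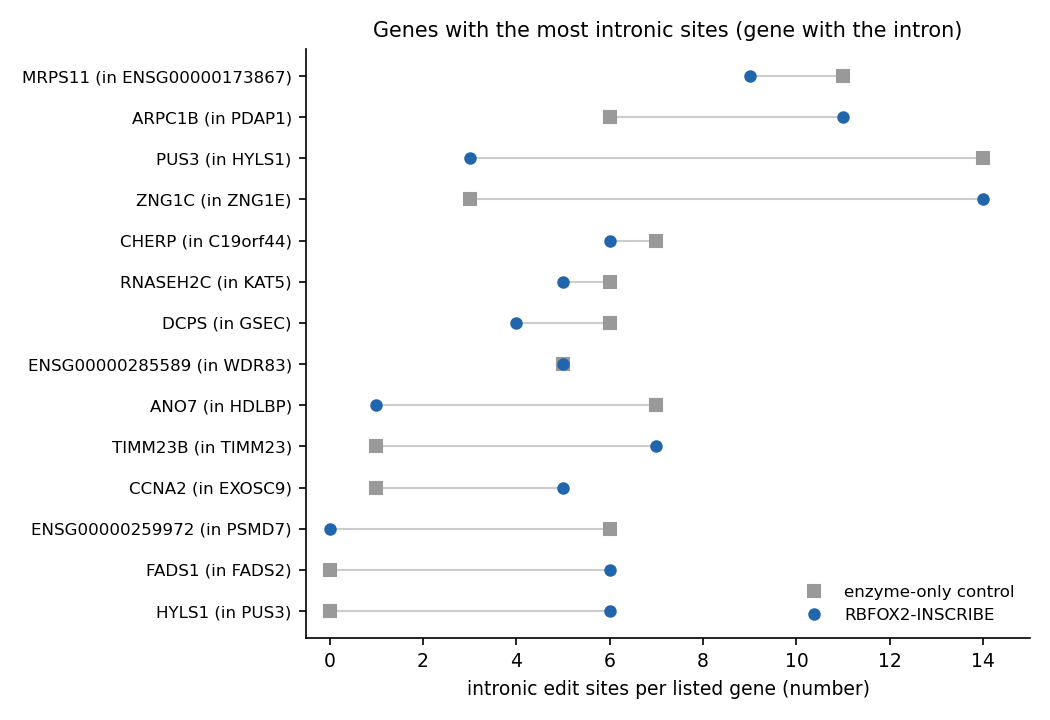
Number of intronic sites per listed gene in the RBFOX2-INSCRIBE library (circles) and the enzyme-only control (squares), with the gene that holds the intron in brackets, for the 14 genes named for their counts. PUS3 had 3 and 14 sites and ZNG1C 14 and 3. MRPS11, CHERP, RNASEH2C, DCPS and ENSG00000285589 lay within 2 sites of each other.

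Over all intronic sites, no excess of the RBFOX2 motif over other intronic cytosines was detectable. UGCAUG lay within 50 nt of 7 of 363 RBFOX2 sites (1.93%, 0.779 to 3.93), against 9.26 expected from the intronic cytosines of the same genes, a ratio of 0.756 (0.305 to 1.54). For the control it lay within 50 nt of 13 of 374 (3.48%, 1.86 to 5.87), against 9.64 expected, a ratio of 1.35 (0.723 to 2.28). Both intervals hold 1, and they overlap. The cytosines behind the expected counts were not matched for distance to splice sites, whereas windows around sites close to intron ends reach into exons. On the own strand the counts were 3 against 3.30 expected and 4 against 3.35, on the opposite strand 1 against 3.45 and 6 against 4.30, and outside the span 3 against 2.5 and 3 against 1.99. With 200 nt in place of 50, outside sites of the RBFOX2 library were the 1 group of these 6 whose interval did not hold 1. The motif was then near 18 of 95 against 9.73 expected, a ratio of 1.85 (1.14 to 2.76), and in the control near 9 of 87 against 7.57, a ratio of 1.19 (0.556 to 2.15), an interval that overlaps. Of the 18 sites, 9 were listed under ZNG1 genes and 14 had a window with a further copy in the genome, so they are not independent of each other. In exons of the models the motif was within 50 nt of 3.96% (3.84 to 4.08) of sites in the RBFOX2 library and 2.32% (2.22 to 2.42) in the control. The RBFOX2 sites with the motif included 2 in SPINT2, a protease inhibitor gene, at 43 and 50 nt from it, and 1 in UBE2F, a NEDD8-conjugating enzyme gene, at 25 nt, 17 nt from the 5′ end of the intron. All 3 were on the own strand and rested on 1 converted read.

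Gene lists chosen for their introns held few of the sites, and were too short to tell from other genes in this. Of 9863 genes with a symbol and a model, 314 (3.18%) had an intronic site in either library. Of 23 listed genes with regulated or detained introns, among them CLK1, SRSF3 and SON, 0 had one. Of 20 small nucleolar RNA host genes, whose introns carry guide RNAs for ribosomal RNA modification, 0 had one, and of 13 genes with exons known to respond to RBFOX proteins, 0 had one. Of 67 cytosolic ribosomal protein genes, RPL28 had 1 opposite-strand RBFOX2 site, in UBE2S. Among 6 genes examined in the study, DCUN1D4 had 1 own-strand enzyme-only site, 1 of 129 reads, 4 nt from the 3′ end of a 2773-nt intron and 131 nt from the nearest UGCAUG.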

How the data were processed

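Long-read cDNA (PacBio) of 2 HEK293T libraries was analysed. Per the methods, the authors aligned reads to hg38 and called C-to-U edits. Their deposited tables give, per position, a count of converted reads and a count of reads of the whole gene, and an edit fraction, the ratio of both. All deposited fractions exceed 0.002. A confidence score that the authors gave each position was not used. Removal of known variants by the authors was not repeated here. The deposited isoform models give exon positions for both libraries together. The labels name another PacBio kit than the methods, and the source of the gene identifiers is not given in the sources used here.

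Read depth was 2431345 (RBFOX2) and 2233600 reads (control), summed over 10199 and 10182 listed genes. A PacBio gene took the symbol of the same-strand GENCODE gene with the largest exon overlap. Positions were set against model exons and GENCODE 44 with Python 3.11.15, pandas 2.3.3 and numpy 2.4.6. A site's intron was the smallest one covering it. Expected shares are complete tallies of intronic cytosines in the genes holding the introns, weighted by sites per gene. Intervals are 95% Clopper-Pearson (scipy 1.17.1), of the ratio's count for log2 ratios. Exact copies of 30-base windows were counted on both strands of hg38, the source of all sequences. The calculation of expected shares was tested on simulated data.

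Named genes were the 8 with most sites per library, the 5 introns with most sites, the 5 highest and lowest log2 ratios, the 8 positions with most converted reads per library, positions with at least 2 converted reads and UGCAUG within 20 nt, and members of 5 gene lists; others were picked after their values were seen. The members, lists and rules were chosen with earlier results of these data known. Alternatives changed the minimum of converted reads, the gene reads, shared positions, exons, leading genes, the motif window and the background.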

Additional observations from a re-analysis of the deposited data

How the results depend on the processing

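The numbers are given for the RBFOX2 library first and the control second. Of 102 alternative values, 75 stayed within the interval of the reported share or ratio, or within 1.5 times the reported count, and 27 did not. With at least 2 converted reads, 19 and 18 sites were left. A or U then preceded 31.6% of RBFOX2 sites, 33.3% of control sites were near a splice site, the motif ratio of RBFOX2 was 0, and introns with at least 5 sites held 0% and 33.3%. Without the 5 genes with most sites, those introns held 12.2% and 13.5%. Without positions in an opposite-strand GENCODE exon, 218 and 213 sites were left, 54.1% and 60.6% near a splice site and 7.80% and 15.5% in such introns. For own-strand sites alone, chosen after seeing the data, the values were 120 and 132 sites, 90.8% and 95.5% near a splice site, 50.8% and 43.9% after A or U, and 0% and 12.1% in such introns. With windows found once in the genome, also chosen after seeing the data, 47.9% and 51.7% were near a splice site, and 16.3% of RBFOX2 sites were in such introns. With at least 20 intronic sites, only MRPS11 was left and 0 genes were past 2-fold. The motif ratio ranged over windows of 20 and 200 nt from 0.721 to 1.09 and from 1.01 to 1.16. No paired analysis was possible because each group is 1 library and the replicate numbers of the labels differ. Depth inside introns is unknown.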

Other observations

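Another 26 positions met the same rule but were listed in both libraries, 9 on the own strand, 9 on the opposite strand and 8 outside the span. At 6 of them each library had at least 2 converted reads. The position with the highest counts, chr2:37202320 under CEBPZOS in an intron of CEBPZ, had 38 of 117 reads (32.5%) in the RBFOX2 library and 39 of 129 (30.2%) in the control. It was on the strand opposite to the listed gene. Whether this or the other shared positions are variants of the cell line rather than edits was not tested. VKORC1, the vitamin K epoxide reductase and target of warfarin, had 10 of 416 (2.40%) and 6 of 352 (1.70%) at chr16:31091345. DNM2, which encodes a dynamin, had 5 of 170 (2.94%) and 7 of 166 (4.22%) at chr19:10805976. ATP5PF, an ATP synthase subunit gene, had 8 of 687 (1.16%) and 15 of 642 (2.34%) at an opposite-strand position, chr21:25735647.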
